A study of Homo sapiens with 9 samples.

Results

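The baseline described here is the transcriptome of DLD1 cells that received no siRNA. DLD1 is a human colorectal adenocarcinoma line with a near-diploid karyotype, and its known mutations include ones in APC, PIK3CA and the mismatch repair gene MSH6. Its members were the 3 arrays labelled as untreated control DLD1 cells, of 9 arrays in all. The other arrays came from 3 cultures with a knockdown (Kd) of Lamin A/C and 3 with a Kd of Lamin B2, each with 100 nM siRNA for 48 h. The controls were independent cultures grown in serum-containing medium, without transfection reagent or a control siRNA, so the siRNA itself and the transfection cannot be told apart in any comparison with the Kd arrays. All 9 arrays share the line, and cells of a culture were pooled on 1 array, so fewer cells that express a gene and less RNA per cell cannot be told apart.

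Colon epithelium renews from stem cells at the base of its crypts, where Wnt signaling through beta-catenin is high, and its cells move upward as they become absorptive colonocytes, mucus-secreting goblet cells or hormone-secreting enteroendocrine cells. Most colorectal cancers switch Wnt signaling on by loss of APC, and many add an activating RAS mutation and lose the programs of mature colonocytes. A cell line also keeps a set of genes that every dividing cell needs and leaves genes of other lineages off. The lists below follow these roles.

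Each value is the log2 of the background-subtracted signal of a probe minus the median of its array, so that 0 is the median of the array. A gene has the value of its brightest probe. A gene was called detected where that probe was well above background on all 3 control arrays. Of 31002 gene names with a value, 21529 (69.4%) were detected, 2276 (7.34%) were above background on 1 or 2 arrays and 7197 (23.2%) on none. The detected genes were divided at the quartiles of their means: those with a mean of at least 4.96 are called bright (5383 genes), those with a mean of at most 0.25 weak (5383 genes) and the others middle (10763 genes). ACCN2 and LARP7 lay just inside the bright class, and MPI just outside it, all at 4.96. Silent means that no probe of the gene was above background on any control array, which held for 7165 genes (23.1%), and the remaining 2308 are called partly detected. Brightness depends on the probe as well as on the transcript, so the classes rank probe signals and not transcript amounts.

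The control arrays had a median intensity of 71.1 to 82.6, and 68.0 to 68.7% of their spots were well above background. The lowest signal marked as well above background was −2.14 on the log2 scale in replicate 2 and −2.07 in replicate 3. The highest mean among detected genes was 12.34, for the ribosomal protein gene RPS2. The other names among the 10 highest were OAZ1, which restrains polyamine synthesis, the ribosomal gene RPS28 and 7 transcript names of the array without a gene symbol. At the other end, the detected gene of lowest mean was RAMP3, at −1.98, and the silent name of highest mean was C6orf217, at −1.66. No spot was saturated.

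The lists hold 522 genes, of which 517 were measured. Of these, 384 (74.3%) were detected, 116 were bright, 173 were middle, 95 were weak, 35 were partly detected and 98 (19.0%) were silent. The lists of housekeeping, proliferation, mismatch repair, nuclear lamina, colorectal cancer, and RAS and MAP kinase genes had no silent or partly detected member. Lists of mature gut cells and of other lineages held most of the silent genes.

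**Figure D1:**
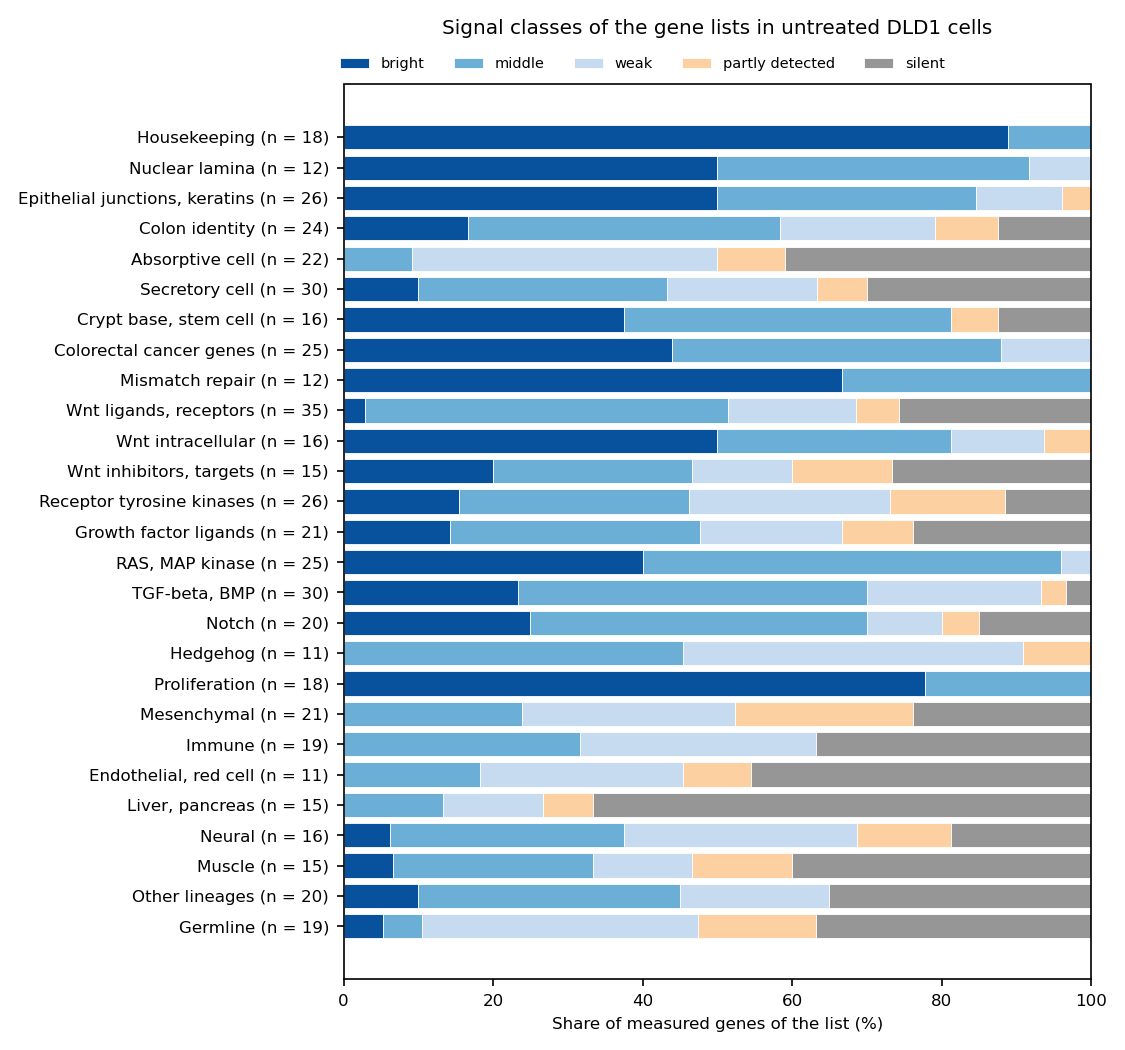
Each bar is 1 gene list, with its number of measured genes, and the colors give the share (%) of them in each signal class of the 3 untreated controls. Housekeeping (16 of 18 bright) and proliferation (14 of 18 bright) lie at one end, and the liver and pancreas list (10 of 15 silent) at the other.

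The label was checked against markers first. Of 13 markers of colon epithelium, 10 were detected, 2 were partly detected and 1 was silent. EPCAM, an adhesion protein of epithelial cells, read 9.81, 9.88 and 10.02 in the 3 cultures. CDH1, which codes for E-cadherin, read 8.61, 8.65 and 8.64. The 3 cultures thus lay within 0.21 of each other for both genes. The simple-epithelium keratins KRT8, KRT18 and KRT19 had means of 10.57, 11.65 and 10.82, all bright. CDX2, the homeobox factor that specifies intestine, read 4.06, 3.92 and 4.23.

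Markers of mature colon were lower in class. KRT20, a keratin of surface colonocytes, was weak at −1.18, −1.84 and −1.19. CDX1 was above background on 2 arrays, at −0.61, −2.19 and −1.15. So was GPA33, a surface antigen of intestinal epithelium, with the brighter of its 2 probes. CEACAM5, the carcinoembryonic antigen, was silent at −3.45, −2.92 and −3.03.

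Of 6 fibroblast markers, 2 were detected, both weak: DCN, a proteoglycan of connective tissue, at a mean of −1.24, and VIM, which codes for vimentin, at −0.71. The collagens COL1A1 and COL1A2 were above background on 1 array each, and COL3A1 and LUM were silent. Of 4 leukocyte markers, PTPRC, which codes for CD45, and MS4A1 were silent, whereas CD3E and CD14 were detected with means of 0.32 and 1.33. CDH5 of endothelium was silent, and the other markers of endothelium and red cells had means no higher than 0.35.

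**Figure D2:**
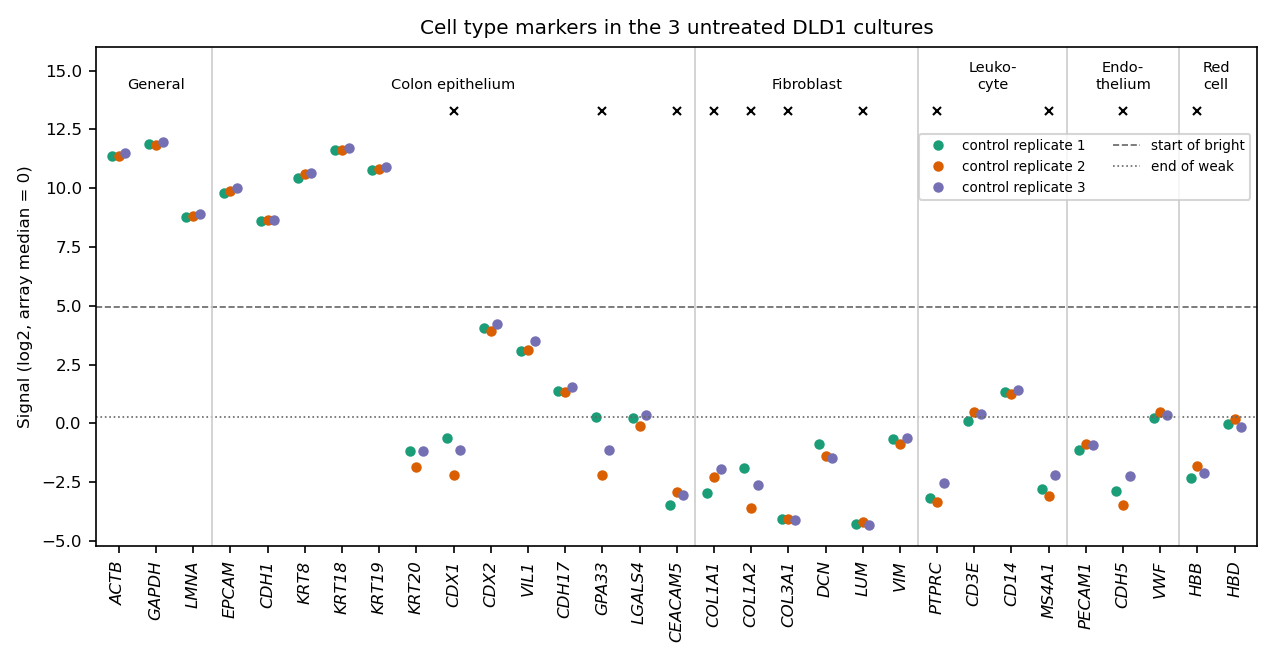
Points give the log2 signal of each marker gene in the 3 untreated cultures, with the array median at 0. The dashed line at 4.96 is the start of bright, the dotted line at 0.25 the end of weak, and a cross above a gene means that it was not detected on all 3 arrays. ACTB, GAPDH, LMNA, EPCAM, CDH1, KRT8, KRT18 and KRT19 lie above the dashed line, and no marker of the other cell types does.

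All 18 housekeeping genes were detected, 16 of them bright, with a median of 9.12 against 2.51 over all detected genes. GAPDH, an enzyme of glycolysis, read 11.88, 11.85 and 11.95, and ACTB, which codes for beta-actin, read 11.37, 11.37 and 11.51. The 2 genes that were not bright were TBP, the TATA-binding protein, at 3.94, and POLR2A, the large subunit of RNA polymerase II, at 0.46. The SD over the cultures was at most 0.16 in this list, in RPL13A. All 12 genes of the nuclear lamina were detected. LMNA, the target of the Lamin A/C siRNA, read 8.79, 8.79 and 8.91, and LMNB2 read 5.44, 5.51 and 5.74.

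The promoters of the classes differed in a property that the classes did not use. For each gene 1 promoter was taken from RefSeq (GRCh38.p14), although a gene can have other starts. The 250 bases before that start were matched to 14515 of the measured genes. The median number of CG dinucleotides in them was 22 in bright, 20 in middle, 10 in weak, 7 in partly detected and 6 in silent genes, against 18 over all matched genes and 11 over all 27305 promoters of the table. At least 10 CG were held by 90.5% of bright and 42.3% of silent genes. The letters TATAAA, which do not overlap with CG, were found on the strand of the gene in 3.78% of bright, 4.31% of middle, 10.04% of weak, 9.21% of partly detected and 11.6% of silent genes, and in 7.17% of all promoters of the table. On either strand the shares were 5.51% for bright, 15.2% for silent and 11.1% for all. Genes are not independent replicates, and no test was made.

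**Figure D3:**
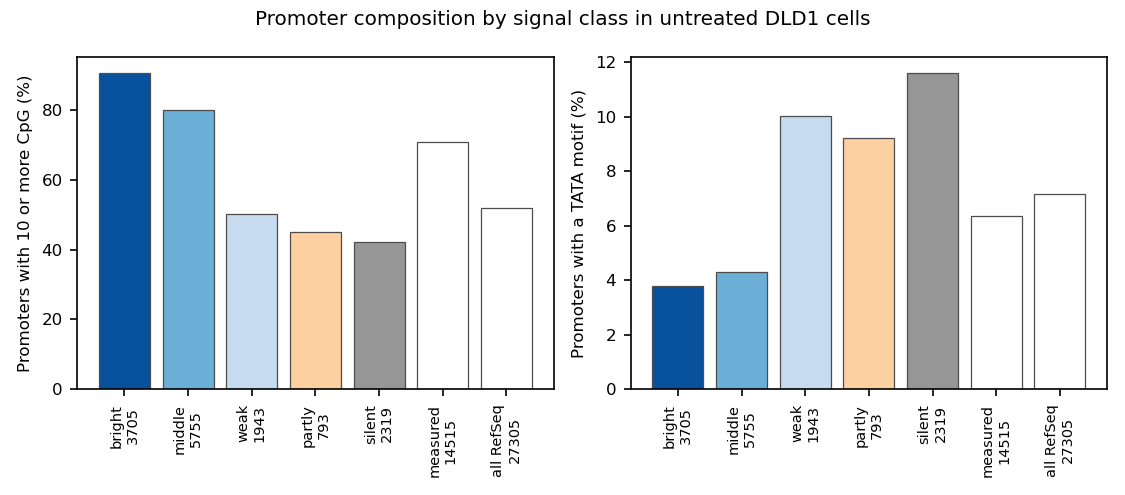
Bars give the share (%) of promoters, 250 bases before the start, with at least 10 CpG dinucleotides (left) and with a TATA motif on the strand of the gene (right) for each signal class, for all matched genes and for all RefSeq promoters, with the number of promoters under each bar. The CpG share runs from 90.5% in bright to 42.3% in silent genes, and the TATA share from 3.78 to 11.6%.

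The sequences of 6 genes are shown because they span the classes and include an exception. They are written 5′ to 3′ on the strand of the gene and end at the base before the start, with CG and TATAAA in capitals. The windows taken for GAPDH (chr12:6535014-6535263, plus strand) and LMNA (chr1:156082323-156082572, plus strand), both bright, hold 22 and 21 CG. KRT8 (chr12:52926470-52926719, minus strand) is bright too but holds 1 in the window taken. Whether the transcript measured starts at the end of the window taken was not tested for any of the 6 genes. KRT20 (chr17:40885243-40885492, minus strand), which was weak, holds 2, and so does CEACAM5 (chr19:41708376-41708625, plus strand), which was silent. ALB (chr4:73404037-73404286, plus strand), the silent gene of serum albumin, holds 3. None of the 6 holds TATAAA on its strand in this window, and other starts of these genes were not searched.
GAPDH: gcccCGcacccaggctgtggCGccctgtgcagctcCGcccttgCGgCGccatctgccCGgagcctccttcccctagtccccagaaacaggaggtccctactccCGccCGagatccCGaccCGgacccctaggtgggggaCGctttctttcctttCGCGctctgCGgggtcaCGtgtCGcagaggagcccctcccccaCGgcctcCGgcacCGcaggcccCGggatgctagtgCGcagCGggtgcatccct
LMNA: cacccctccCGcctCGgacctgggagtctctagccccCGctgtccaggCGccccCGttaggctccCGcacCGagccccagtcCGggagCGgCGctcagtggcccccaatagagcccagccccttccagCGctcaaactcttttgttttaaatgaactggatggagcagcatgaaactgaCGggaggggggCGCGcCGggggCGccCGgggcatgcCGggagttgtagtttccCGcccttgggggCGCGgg
KRT8: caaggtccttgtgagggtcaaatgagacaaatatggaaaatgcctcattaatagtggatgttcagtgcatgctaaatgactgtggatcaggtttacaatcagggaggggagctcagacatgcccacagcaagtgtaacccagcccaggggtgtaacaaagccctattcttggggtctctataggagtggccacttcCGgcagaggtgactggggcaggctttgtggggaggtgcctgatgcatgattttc
KRT20: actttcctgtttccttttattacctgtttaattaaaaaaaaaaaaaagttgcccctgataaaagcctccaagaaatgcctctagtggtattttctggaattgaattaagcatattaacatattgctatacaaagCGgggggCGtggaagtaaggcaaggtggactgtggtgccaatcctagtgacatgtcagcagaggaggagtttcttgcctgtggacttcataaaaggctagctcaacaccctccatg
CEACAM5: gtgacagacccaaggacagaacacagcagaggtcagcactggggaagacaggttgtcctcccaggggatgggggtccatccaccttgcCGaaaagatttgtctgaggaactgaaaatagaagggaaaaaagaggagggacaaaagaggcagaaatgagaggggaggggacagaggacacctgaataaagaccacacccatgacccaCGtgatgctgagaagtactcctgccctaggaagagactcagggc
ALB: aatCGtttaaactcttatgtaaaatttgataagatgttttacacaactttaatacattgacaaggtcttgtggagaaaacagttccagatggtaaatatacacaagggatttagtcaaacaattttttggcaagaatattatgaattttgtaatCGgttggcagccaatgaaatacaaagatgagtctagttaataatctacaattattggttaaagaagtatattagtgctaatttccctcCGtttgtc

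Genes of epithelial junctions and keratins were detected in 25 of 26 cases, and 13 were bright. PKP3, a plakophilin of desmosomes, had a mean of 9.02 ± 0.06 (SD, n = 3) and DSP, which codes for the desmosome protein desmoplakin, read 7.47, 7.51 and 7.51. CLDN7, a tight junction claudin, read 7.17, 7.04 and 7.39. The splicing regulator ESRP2 and the transcription factor ELF3, both typical of epithelium, were bright at 7.74 and 5.81. KRT7, a keratin of other simple epithelia, was above background on 1 array, at −0.49, and read −3.59 and −3.85 on the others.

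The list of colon identity had 19 of 24 genes detected, 4 of them bright. The bright genes included GATA6, a factor of gut endoderm (5.74, 5.67 and 5.87), KLF5 (mean 7.20) and the posterior homeobox gene HOXA13 (6.22, 6.17 and 6.33). HOXB13, which marks the distal gut, read 3.74, 3.53 and 3.94. HNF4A, a factor of liver and gut, was weak at −1.28, −0.81 and −0.95. GATA4, a factor of the proximal intestine, and HNF4G were silent along with CEACAM5. VIL1, which codes for the brush border protein villin, read 3.07, 3.11 and 3.5, and the cadherin CDH17 had a mean of 1.43.

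Of 22 genes of absorptive cells none was bright, 11 were detected with a median of −0.74, and 9 were silent. Carbonic anhydrase CA2 was the member of highest signal, at 4.60, 4.55 and 4.61, and CA4 was silent. SLC26A3, the chloride exchanger of colonocytes, was weak at −1.59, −1.84 and −2.01. The fatty acid binding proteins FABP1 and FABP2, the brush border enzymes ANPEP and SI, the guanylin receptor GUCY2C and its ligand GUCA2B were all silent. FABP1 read −4.31, −4.37 and −4.36, and ANPEP −4.28, −4.26 and −4.30.

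Secretory cell genes were mixed, with 19 of 30 detected, 3 bright and 9 silent. The bright genes were AGR2, which helps fold mucins (7.24, 7.29 and 7.36), and the trefoil factors TFF1 (6.23, 6.12 and 6.23) and TFF3 (5.67, 5.60 and 5.64), which protect mucosa. MUC2, the gel-forming mucin of goblet cells, read 1.98, 2.71 and 2.31, and MUC5B read 3.63, 3.56 and 3.55. Of 3 probes to MUC2, 1 was above background on no control array (mean −4.31), and so were 2 of 6 probes to MUC5B (lowest mean −3.26). ATOH1, which commits cells to the secretory fate, was silent at −4.31, −3.66 and −3.56, although SPDEF and GFI1, which act after it, had means of 1.01 and 1.32. Lysozyme LYZ and the goblet cell protein CLCA1 were silent. Among enteroendocrine genes, NEUROG3, a factor of their progenitors, read 3.91, 4.03 and 4.15 and CHGA had a mean of 1.5, whereas NEUROD1, GCG, CHGB and TPH1 were silent.

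The crypt base list had 13 of 16 genes detected and 6 bright, with a median of 4.31. ASCL2, a Wnt target that maintains intestinal stem cells, read 8.76, 8.80 and 8.80. The other probe to ASCL2 had a mean of 0.60. RNF43 and ZNRF3, ligases that remove Wnt receptors, had means of 7.17 and 5.93. CD44 (6.95), SOX9 (5.99) and BMI1 (5.89) were bright too. LGR5, the receptor that marks crypt stem cells, read 0.01, 0.21 and 0.66, and its probe in culture 3 was the highest. OLFM4, a stem cell gene of small intestine and colon, was silent at −4.28, −4.38 and −4.34, and so was ALDH1A1. TERT, the telomerase subunit, read 4.06, 4.55 and 4.32.

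Every one of 25 genes mutated in colorectal cancer was detected, 11 of them bright. CTNNB1, which codes for beta-catenin, read 7.43, 7.24 and 7.54, and its partner TCF7L2 read 7.65, 7.61 and 7.87. The other probe to CTNNB1 had a mean of 4.43, and the next of 3 probes to TCF7L2 had a mean of −0.19. The weak members included APC (−0.81, −0.64 and −0.67) and ATM (−1.25, −1.89 and −0.25). Among 12 genes of mismatch repair, 8 were bright. MSH6 read 5.83, 5.76 and 5.81. The exonuclease EXO1, the clamp PCNA and the ligase LIG1 were bright at 5.96, 8.88 and 7.62. These are transcript signals and carry no information on mutations.

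In the Wnt pathway the ligands and receptors had 24 of 35 members detected but 1 bright. That was WNT6, at 7.85, 7.45 and 7.32, and its other probe had a mean of −0.09. WNT10A (3.27), WNT3 (3.08) and WNT5B (2.31) were middle. WNT2, WNT2B, WNT3A, WNT7A, WNT8A, WNT8B and WNT16 were silent, as were the receptor FZD10 and the R-spondin RSPO2. Of 10 frizzled receptors, FZD5 had the highest signal, at 4.36, 4.37 and 4.53, and the co-receptors LRP5 and LRP6 had means of 1.89 and 2.15.

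Inside the cell, 15 of 16 Wnt components were detected and 8 were bright. DVL1, which relays the receptor signal, read 8.62, 8.61 and 8.87, and LEF1, a DNA-binding partner of beta-catenin, read 7.78, 7.76 and 7.85. The other probe to LEF1 had a mean of 0.53. AXIN2, both a brake and a target of the pathway, read 7.95, 8.15 and 8.05, and the targets MYC, CCND1 and SP5 had means of 7.91, 7.0 and 5.55. TCF7L1 was above background on 1 array. The secreted inhibitors DKK1, DKK2, DKK4 and SFRP5 were silent, SFRP1 and SFRP2 were weak at −0.75 and −0.81, and SFRP4 and WIF1 were above background on 2 arrays each. DKK1 read −4.18, −4.22 and −4.28.

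Among 26 receptor tyrosine kinases, 19 were detected and 4 were bright: MET (7.74, 7.69 and 7.75), ERBB2 (6.51, 6.41 and 6.64), KIT (5.43, 5.40 and 5.49) and MST1R (5.35, 5.39 and 5.34). The next of 3 probes to MET had a mean of 1.10, and the other probe to ERBB2 had a mean of −0.45. EGFR, the target of antibodies used in colorectal cancer, read 2.28, 2.44 and 2.26 with the brightest of 6 probes. FLT3, RET and ALK were silent. Of 21 growth factors, AREG and EREG, ligands of EGFR, were bright at 8.95, 8.92 and 8.98 and at 7.65, 7.70 and 7.62, and IGF2 was bright at 5.65, 5.59 and 5.95. The other probes to EREG and IGF2 had means of 4.27 and −1.09. EGF itself was silent at −3.33, −4.31 and −2.77, and so were EPGN, FGF10, FGF19 and VEGFC.

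All 25 genes of the RAS and MAP kinase list were detected and 10 were bright. HRAS, MAP2K1 and MAP2K2 had means of 6.18, 5.73 and 5.73. The feedback gene DUSP6 read 7.36, 7.5 and 7.33, and the immediate early genes IER3 and EGR1 had means of 8.19 and 7.20. SOS1, the exchange factor that loads RAS with GTP, was the only weak member, at −0.59, −0.43 and −0.14.

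In the TGF-beta and BMP list, 28 of 30 genes were detected and 7 were bright. BMP4 read 7.96, 8.12 and 8.18, and the BMP targets ID1 and ID2 had means of 8.31 and 6.82. TGFBR2, a receptor that mismatch repair-deficient tumors often mutate, read 6.56, 6.46 and 6.59, and SMAD4, the shared effector, 1.94, 1.67 and 1.91. GREM1, a secreted BMP inhibitor of stroma, was silent.

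Notch genes were detected in 16 of 20 cases, with NOTCH2 (6.56, 6.51 and 6.58), the DNA-binding effector RBPJ (6.70), its coactivator MAML1 (6.16) and the targets HES1 (5.21) and HES4 (5.30) bright. NOTCH1 was weak at −0.07, and HEY1, HEY2 and DLL3 were silent. Of 11 Hedgehog genes none was bright or silent. HHIP, which binds the ligands, had a mean of 2.77, and SMO, PTCH1, GLI2 and GLI3 were weak. GLI1, a target often read as a sign of pathway activity, was above background on 1 array.

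**Figure D4:**
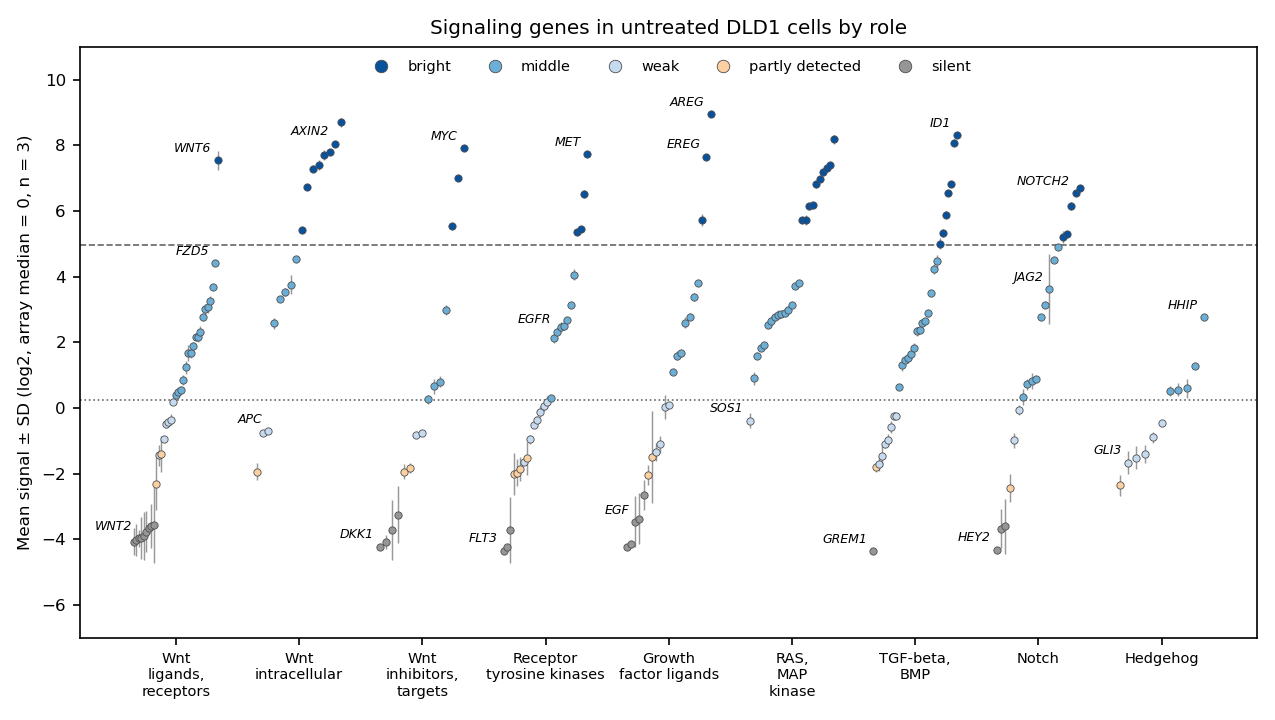
Points are the genes of 9 signaling lists, ordered by signal within a list, with the mean of the 3 controls and its SD as a bar (log2, array median at 0) and the class as color. Intracellular Wnt genes and RAS and MAP kinase genes lie mostly above the dotted line at 0.25, whereas Wnt ligands, growth factors and secreted inhibitors reach down to about the level of silent genes.

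All 18 genes of the proliferation list were detected, 14 of them bright, with a median of 6.94. BIRC5, a survival protein of mitosis, read 9.47, 9.37 and 9.57, and PCNA, CCNB1, MCM2 and PLK1 had means of 8.88, 8.02, 7.91 and 7.81. MKI67, the antigen used to count cycling cells, read 3.26, 3.25 and 3.52. The inhibitors CDKN1B, CDKN1A and CDKN2A were middle at 4.82, 3.88 and 1.79.

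Lists of other lineages had few bright genes. Of 21 mesenchymal genes, 11 were detected and none was bright, with ZEB1, CDH2, FAP, COL3A1 and LUM silent and SNAI1, a repressor of E-cadherin, at 3.35, 3.29 and 3.31. Of 19 immune genes, 7 were silent and none was bright, and CD4 had the highest signal at 5.02, 4.95 and 4.85. Of 11 endothelial and red cell genes, 5 were silent. The liver and pancreas list had 10 of 15 silent, among them ALB, APOA2, TTR, AFP and CYP3A4, while SERPINA1 read 1.97, 1.87 and 2.12.

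Bright genes were also found in lists of lineages that colon cells do not belong to. In the neural list TUBB3, a tubulin, read 8.40, 8.43 and 8.62, with both of its probes detected. In the muscle list ACTC1, an actin, read 6.16, 6.10 and 6.41 with its brighter probe, and the other had a mean of −0.11. In the list of other lineages KRT10 read 8.42, 8.42 and 8.54, and the lowest of its 3 probes had a mean of 7.75. KLK3, which codes for prostate-specific antigen, read 7.0, 6.47 and 6.83 with its brightest probe, whereas the next of its 5 probes had a mean of 0.32. POU5F1, a pluripotency factor with near-identical copies elsewhere in the genome, read 5.46, 5.72 and 5.41, against 1.95 for the next of 4 probes, and which copy was measured is uncertain. TP63, KRT5 and PGR were silent, and so were MAGEA1, MAGEA3, MAGEA4, PRAME and DAZL of the germline list, in which 7 of 19 genes were silent.

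Probes of 1 gene often disagreed. Of 227 list members with several probes, 190 had a probe that was detected, and in 55 of these another probe was above background on no control array. The median gap between the highest and lowest probe of these 190 genes was 2.95 on the log2 scale. MYC was bright with 1 probe at 7.91 while another of its 3 had a mean of −3.25, and for MBP the probes ranged from 4.34 to −4.03. Class by the brightest probe is thus an upper reading of a gene.

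Whole gene families gave a scale for these counts. Ribosomal protein genes were detected in 79 of 82 cases (96.3%), proteasome genes in 47 of 48 and NDUF subunits of respiratory complex I in 36 of 36. Mitochondrial carriers of the SLC25 family were detected in 41 of 47 cases. Olfactory receptor genes, which belong to the nose, were detected in 205 of 354 cases (57.9%), of which none was bright and 140 were weak, with a median of −0.35. Taste receptors were detected in 9 of 24 cases, keratin-associated proteins of hair in 41 of 74 and beta-defensins in 16 of 33. Over all genes 69.4% were detected, and the shares of these 4 families lay below it, from 37.5 to 57.9%, while those of the first 4 lay between 87.2 and 100%. Bright members numbered 78 of 82 for ribosomal, 43 of 48 for proteasome, 35 of 36 for NDUF and 18 of 47 for SLC25 genes. The olfactory, taste and beta-defensin families had none, and the hair family had 2, KRTAP1-3 at 5.38 and KRTAP2-4 at 5.34.

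Homeobox clusters differed from each other. All 11 HOXA genes and 9 of 10 HOXB genes were detected, against 1 of 9 HOXC and 4 of 9 HOXD genes. HOXC9 was the detected HOXC gene, at 1.55, 1.30 and 1.54, and 7 HOXC genes were silent. Of 55 keratins, 28 were detected and 5 were bright, and of 18 mucins MUC20 alone was bright, at 6.34, 6.46 and 6.46.

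Across chromosomes, 77.6% of 18093 measured protein-coding genes were detected. The share was 87.5% on chromosome 16 and 64.5% on the X chromosome, the highest and lowest. Chromosome 13 had 73.5%, chromosome 18 had 76.2% and chromosome 19 had 81.3%. The median signal of detected genes on chromosome 19 was 2.64 against 3.41 over all chromosomes, and 3.94 on chromosome 13. Without olfactory, taste and other listed families, the share on chromosome 11 was 78.9% instead of 76.0%. These are descriptions of 1 line, and no test was made.

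The 3 cultures lay close together. The median SD of a detected gene over them was 0.107 on the log2 scale, which is 0.0766 in bright, 0.102 in middle and 0.185 in weak genes. For 83 probes spotted 11 times, the median SD of the probe means between control arrays was 0.0851. Single spots within an array had a median SD of 0.0915, and the median standard error of a probe mean from them was 0.0281. The SD between arrays exceeded that standard error in 73 of the 83 probes. The range over the cultures exceeded 1, which is a 2-fold difference, in 512 genes (2.38%). This held for 0.743% of bright and 5.48% of weak genes. Control replicates 1 and 2 differed by over 2-fold in 401 genes, 1 and 3 in 153, and 2 and 3 in 243. Replicate 2 was the odd one in 294 of the 512 genes, replicate 1 in 171 and replicate 3 in 47.

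Single genes went far beyond this. NANOS3, a germ cell gene, read 6.91 in replicate 1 and −1.16 and −1.19 in the others. IL29, an interferon, read 3.87, −1.31 and −1.56. In both genes replicate 1 alone stood apart. Of the 10 genes with the largest SD, replicate 1 was the odd culture in 8, replicate 2 in LLGL1 and replicate 3 in a transcript without a symbol.

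Of 384 detected list members, 7 had a range over 1, 5 of them weak and none bright. JAG2, a Notch ligand, read 4.09, 2.39 and 4.37, with replicate 2 low. CD68, a marker of macrophages, read 2.17, 0.50 and 0.59, with replicate 1 high. The others were NANOG, ATM, the regenerating protein REG4, the gut hormone INSL5 and the neurofilament NEFM. REG4 read −1.59, −1.88 and −0.25, and INSL5 0.25, −1.14 and −0.78.

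**Figure D5:**
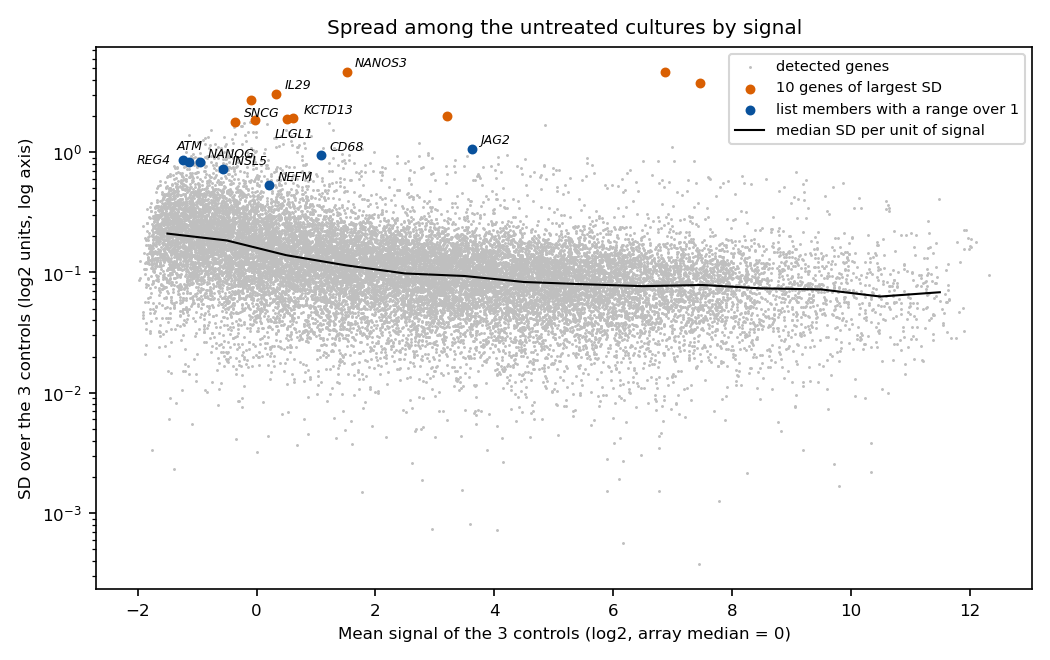
Each grey point is a detected gene, with the mean log2 signal of the 3 controls (array median at 0) on the x axis and its SD over them on a log y axis, and the black line is the median SD per unit of signal. The median is 0.0766 for bright and 0.185 for weak genes, the 10 genes of largest SD (orange) reach from 1.80 to 4.67, and the 7 list members with a range over 1 (blue) lie below them and above the line.

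The spread was smaller than in the Kd groups. Over the genes detected in controls, the median SD was 0.136 for Lamin A/C Kd arrays and 0.260 for those of Lamin B2 Kd. Lamin B2 Kd replicate 3 was the only array of the series on a second slide, and Lamin B2 Kd replicates 1 and 2 gave a median pair SD of 0.112, against 0.0778 to 0.0955 for pairs of controls and 0.106 to 0.121 for pairs of Lamin A/C Kd arrays. Pairs with replicate 3 gave 0.268 and 0.284. No test of these differences was made.

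The baseline held for most genes in the Kd arrays. Of the 21529 detected genes, 95.9% were detected on all 3 Lamin A/C Kd arrays and 96.1% on all 3 Lamin B2 Kd arrays. Of 7165 silent genes, 21 were detected on all Lamin A/C Kd arrays and 66 on all Lamin B2 Kd arrays, and none of these was a list member. In the reverse direction, 105 and 19 detected genes were above background on no array of the Kd. The share of all spots well above background was 65.6 to 68.0% on the Lamin A/C Kd arrays and 66.6, 74.1 and 72.8% on those of Lamin B2 Kd, against at most 68.7% in controls, and its part in these counts was not tested.

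Calls were made by limma at a 2-fold change and an unadjusted p under 0.05. Of 21794 genes tested, 478 were called in Lamin A/C Kd (2.19%), 193 higher (0.886%) and 285 lower (1.31%). Among list members 12 of 384 tested were called (3.13%), 5 higher and 7 lower. LMNA, the target, read 4.84, 5.14 and 5.03 after Kd and fell by 3.83 on the log2 scale (adjusted p = 0.000256), below every control. The epithelial keratin KRT80, bright at baseline, read 5.09, 4.95 and 5.06 in controls and 3.87, 3.88 and 4.0 after Kd. NOTCH2, EPHA2, EMD and FN1 were also lower, and LRIG1, APCDD1, WNT5A, CEACAM6 and PDGFRB were higher. LRIG1, which restrains growth factor receptors, read 1.34, 1.53 and 1.64 in controls and 3.41, 3.46 and 3.21 after Kd (adjusted p = 0.00153). The calling rule itself favors genes whose control and Kd values do not overlap. The share without overlap over all genes tested was not counted, so overlap is not used here as support. PDGFRB was above background on 2 control arrays and was tested only through the Kd arrays. IL7R, a cytokine receptor, was above background on no Lamin A/C Kd array and was tested only through the controls. The direction of both is tied to this filter, so their p-values are no separate support. With the lowest signal well above background on each array as the floor, IL7R was at least 1.87-fold lower in the main scaling. This bound is under the 2-fold limit of the calls and was not tested. The call of CEACAM6 was lost without control replicate 2 or 3 (log2 change 0.98 and 0.96), and that of FN1 without replicate 3 (−0.98). With normexp background correction CEACAM6 (0.48), FN1 (−0.45), PDGFRB (0.65) and IL7R (−0.35) were not called. EMD was not called with quantile normalization (−0.98), nor were APCDD1 (0.25), KRT80 (−0.62) and FN1 in the table of the authors.

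In Lamin B2 Kd, 447 of 22037 genes were called (2.03%), 167 higher (0.758%) and 280 lower (1.27%). Both comparisons share the 3 controls. Of 389 list members tested 16 were called (4.11%), 3 higher and 13 lower. LMNB2 read 3.1, 3.48 and 3.15 after Kd and fell by 2.32 (adjusted p = 0.000547). The RAS gene HRAS read 6.06, 6.20 and 6.27 in controls and 4.83, 5.08 and 4.19 after Kd (adjusted p = 0.0150). EPHB2, a crypt receptor, read 4.09, 4.15 and 4.38 in controls and 3.08, 3.26 and 2.56 after Kd (adjusted p = 0.0146). APCDD1, WNT11, HHIP, FZD6, TERT, HOXB13, VIL1, PKP3 and INSL5 were also lower, and REG4, PYY and NKG7 were higher. Overlap with the controls is not used as support here either, since the calling rule favors genes without it. MAP2 was above background on no Lamin B2 Kd array and INSL5 on 1, so both were tested only through the controls. Their direction is tied to this filter, so their p-values are no separate support. Against the same floor MAP2 was at least 1.74-fold lower in the main scaling, a bound that is also under the 2-fold limit and was not tested.

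Adjusted p was above 0.05 in PKP3 (0.0558), FZD6 (0.0594), PYY (0.0861), NKG7 (0.0986) and INSL5 (0.103). Without Lamin B2 Kd replicate 3, the array of the second slide, 282 genes were called, 166 higher and 116 lower, and PKP3, VIL1, HOXB13, TERT, FZD6, NKG7 and PYY were no longer called, with log2 changes of −0.80, −0.87, −0.81, −0.90, −0.80, 0.79 and 0.78. VIL1 was not called without control replicate 3 either (−0.93). With the slide as a random block 267 genes were called, and the same 7 members were not. The median change of the genes tested was −0.138 after Lamin B2 Kd. When arrays were scaled to their 75th percentile instead, this median was 0.0573, the calls were 307 higher and 96 lower, and PKP3, VIL1, HOXB13, TERT and FZD6 fell under the 2-fold limit. With normexp REG4 (0.73), WNT11 (−0.73), INSL5 (−0.50) and MAP2 (−0.31) were not called either, nor were VIL1, TERT, FZD6, NKG7 and PYY. In the table of the authors WNT11 (−0.60), HOXB13 and VIL1 lost their call and APCDD1 changed by 0.18. With the 75th percentile Lamin A/C Kd had 229 higher and 215 lower calls.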

How the data were processed

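RNA of 9 DLD1 cultures, 3 per group, was hybridized to single-color Agilent 60K arrays, 1 array per culture. The deposited scanner data hold intensities from Feature Extraction (10.5 in the processing notes), already background-subtracted and spatially detrended, with detection marks. The series table of the authors holds log2 values after a 50th percentile shift, centered by gene, and many of its rows join several probes. Only differences can be read from that table, so it served as an alternative.

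From the deposited intensities, control and outlier spots were left out, spots of a probe were averaged, and the log2 signal was set relative to the median of the array. Names were matched to RefSeq (63.7%). A probe was well above background where at least 0.5 of its spots were so marked. Kd and control arrays were compared with limma 3.58.1 (R 4.3.3) over all 9 arrays, for probes that passed this mark in every control array or in every array of the Kd, with Benjamini-Hochberg adjustment over all probes tested. A gene counts by the probe brightest over the controls. On simulated data with 200 probes changed by 1.5 (log2), 96.5% were recovered in each comparison, and 137 and 151 unchanged probes were called, of 33042 and 33443. The simulated noise was normal, independent between arrays and equal in all groups, with no slide effect. These figures may thus not hold for the Lamin B2 Kd arrays, of which replicate 3 was on a second slide.

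The genes named are those of 27 lists, 18 families by counts, the 10 brightest, the 10 of largest SD, and list members called in a Kd. The members and lists were chosen with earlier results of these data known. The number of arrays limits the precision, and p-values measure the spread between these cultures. The labels do not say whether arrays of the same set number were handled together, and the main comparison did not pair them. Some genes of the lists are not reported here. Tools were Python 3.11.15, pandas 2.3.3, numpy 2.4.6, matplotlib 3.10.9 and, in R, the data.table package (1.17.8).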

Additional observations from a re-analysis of the deposited data

How the results depend on the processing

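The count of detected genes kept within 1.5 times of 21529 with another detection mark, with any probe of a gene and without each control, but is 32589 when every probe is counted. The number not detected on any control, 7197, was 2375 with the weaker mark of a positive and significant signal and 13915 over probes. With that mark the detected members were 18 of 21 in the mesenchymal list and 8 of 15 in the liver and pancreas list. The median SD of 0.107 was 0.0959 with a shift by the 75th percentile, 0.0935 with quantile normalization, 0.0891 with normexp and 0.126 without the filter on detection, and it ranged from 0.0781 to 0.0967 without 1 control. Quantile normalization moved 0 and normexp 4 of 517 list members to another class. With normexp 230 genes were called after Lamin A/C Kd, against 478, and 127 after Lamin B2 Kd. In Lamin B2 Kd, against 447, calls were 225 with the adjusted p, 872 without the filter and 267 with the slide as a random block, and from 282 to 980 without 1 array: 917 without replicate 1, 980 without replicate 2 and 282 without replicate 3. In Lamin A/C Kd they ranged from 476 to 533 without 1 array. APCDD1, lower by 1.23 in Lamin B2 Kd, changed by 0.18 in the authors' table, where its row joins other probes. Over all alternatives, 344 of 392 recomputed values of called members kept their call, 47 lost it and 1 changed sign. The lost calls were 13 with normexp, 7 with the slide as a block, 7 without Lamin B2 Kd replicate 3, 6 with the authors' table, 5 with the 75th percentile, 5 with quantile normalization, 3 without control replicate 3 and 1 without control replicate 2. Same-numbered sets correlated between −0.0477 and 0.0874, and other sets between −0.111 and 0.107. No pairing by set number was seen, but 3 arrays per group are too few to exclude it. With the set number as a replicate block 490 and 457 genes were called, and no member lost its call. The cause of these differences was not tested.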
